A study of Homo sapiens with 6 samples.

Results

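The 35 genes described here make complex sphingolipids from ceramide and take them apart again: enzymes of sphingomyelin, glucosylceramide-based glycolipids, galactosylceramide and sulfatide, the proteins that carry these lipids, and the hydrolases and helper proteins of their breakdown. They were taken as a given list of symbols from a table of 78932 listed genes, and all 35 had a row. Of these, 34 had enough counts to be tested. The remaining gene, ST8SIA1, which makes ganglioside GD3, had 0 reads in all 6 libraries. RNA sequencing compared 3 libraries labelled as A549 cells overexpressing HIF-1β (A549-OE) with 3 libraries labelled as wild-type A549 (A549-WT). A549 is an established human lung adenocarcinoma line, and HIF-1β, the product of ARNT, pairs with the hypoxia-inducible α subunits to bind DNA. The labels give transfection as the treatment of both groups, and do not say whether it was transient or stable, what promoter drove the gene, whether the wild-type cells received a vector, or whether replicate libraries stem from different cultures. The spread behind each p-value is that of the libraries and could be purely technical.

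Ceramide is made in the endoplasmic reticulum and carried to the Golgi, where sphingomyelin synthases add phosphocholine and glucosylceramide synthase adds glucose. Lactosylceramide, gangliosides and globosides are built on glucosylceramide, whereas galactosylceramide is made in the endoplasmic reticulum and sulfated to sulfatide. Breakdown takes place mainly in lysosomes, where each sugar or headgroup has its own hydrolase and several of these need a saposin or the GM2 activator to reach the lipid. Inherited loss of several of these hydrolases causes lysosomal storage diseases.

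Levels are given as CPM, the count of a gene divided by the library's TMM-scaled total, as mean ± SD over n = 3 libraries a group, and a gene is called higher or lower where the adjusted p of the edgeR quasi-likelihood test is under 0.05. The libraries held 17192161 to 24454236 counts. ARNT, the targeted gene, was at 141, 146 and 130.0 CPM in the A549-OE libraries and at 39.0, 50.04 and 42.2 CPM in the A549-WT libraries. Its log2 fold change of 1.67 had the direction of the labels. Calls with a change of at least 1 on that scale were made for 37.6% of all tested genes, so ARNT alone does not check the labels. Several other genes differed in ways that the labels do not give. MTAP, which A549 is known to have lost, was at 0.172, 0.640 and 0.388 CPM in the A549-OE libraries but at 79.9, 72.4 and 81.9 CPM in those labelled A549-WT. It is 1 of 7 genes examined that are reported high or lost in A549. CDKN2A and CDKN2B had 0 reads in every library. ALDH1A1 averaged 8835 CPM in A549-OE and 57.4 CPM in A549-WT, and AKR1B10 2988 CPM in A549-OE and 1254 CPM in A549-WT. AKR1C1 averaged 422 CPM in A549-OE and 959 CPM in A549-WT, and SMARCA4 15.6 CPM in A549-OE and 201 CPM in A549-WT. The 6 epithelial markers examined summed to 7880 to 8648 CPM in A549-OE and 2571 to 2794 CPM in A549-WT. Among them CDH1, the epithelial cadherin, averaged 228 CPM in A549-OE and 0.672 CPM in A549-WT, KRT7 averaged 1481 CPM in A549-OE and 9.45 CPM in A549-WT, and KRT19 averaged 0.497 CPM in A549-OE and 208 CPM in A549-WT. Of 5 alveolar markers, AGER alone averaged over 1 CPM in either group, and of 3 immune markers PTPRC and CD3E had 0 reads in every library while CD68, a macrophage lysosomal protein that other cells also express, averaged 33.0 CPM in A549-OE and 15.7 CPM in A549-WT (2.10-fold higher, adjusted p = 5.1e-06). Every library labelled A549-WT shares these features, so no result could be repeated without them. Raised HIF-1β and the other differences between the cells of the 2 groups cannot be told apart in any comparison made here.

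Of the 34 tested genes, 13 were higher in A549-OE, 12 were lower and 9 did not pass. The 73.5% that were called lie beside 74.0% of all 16091 tested genes, so the share of called genes was near that of the whole transcriptome. Over all tested genes 38.3% were higher and 35.7% lower. A change of at least 1 on the log2 scale was found for 17 of the 34, 9 of them higher and 8 lower, and for 37.6% of all tested genes. The libraries of the groups did not overlap for 26 of the 34, against 77.3% of all tested genes. The median log2 fold change was -0.017 over the list and 0.034 over all tested genes. Of the 7 branches, 6 held both higher and lower genes, and in the galactosylceramide and sulfatide synthesis branch both genes were higher.

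**Figure D1:**
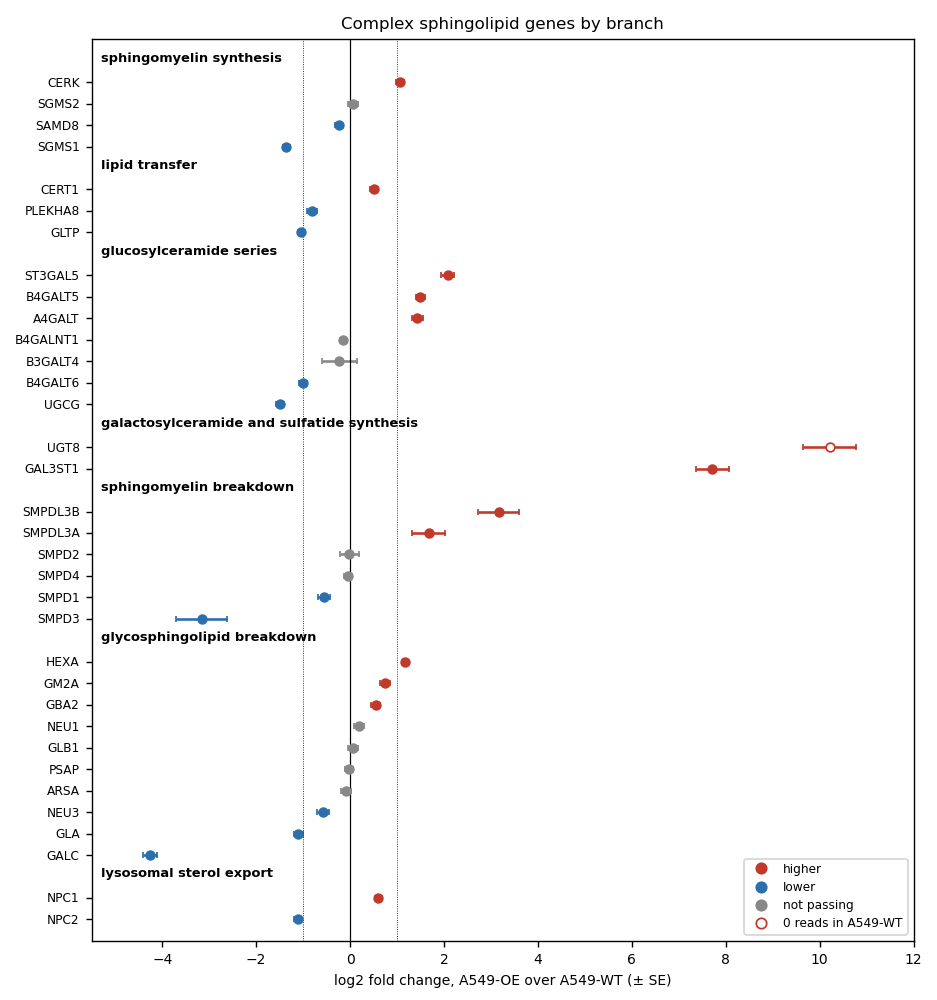
Log2 fold change of each tested gene, A549-OE over A549-WT, with its standard error (horizontal axis), grouped by branch; red points were called higher, blue points lower and grey points did not pass. UGT8 (open circle) had 0 reads in A549-WT, so its position depends on the prior count of the fit, and GALC is the lowest point at -4.27.

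The galactosylceramide and sulfatide synthesis branch, UGT8 and GAL3ST1, differed most. Both genes were higher in A549-OE and nearly without reads in A549-WT. GALC, the galactosylceramide hydrolase, was lower in A549-OE. GALC and the sulfatase gene ARSA are counted under glycosphingolipid breakdown but described here beside the synthetic enzymes. The start regions of UGT8, GAL3ST1 and GALC are shown because these 3 genes had the largest differences of the list. Each window runs from 250 bases before to 50 bases after the gene's start in RefSeq (GRCh38.p14), 5′ to 3′ on the gene's strand: chr4:114598152-114598451, plus strand, for UGT8, chr22:30574616-30574915, minus strand, for GAL3ST1 and chr14:87993133-87993432, minus strand, for GALC. Capitals mark ACGTG and GCGTG, the cores of hypoxia response elements, on either strand; a core on the opposite strand reads CACGT or CACGC.
UGT8: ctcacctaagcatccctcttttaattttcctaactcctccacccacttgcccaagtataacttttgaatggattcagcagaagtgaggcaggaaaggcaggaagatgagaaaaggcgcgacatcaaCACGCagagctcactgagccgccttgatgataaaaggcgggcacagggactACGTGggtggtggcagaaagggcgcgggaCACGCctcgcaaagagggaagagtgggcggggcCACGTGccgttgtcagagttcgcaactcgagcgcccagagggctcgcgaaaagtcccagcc
GAL3ST1: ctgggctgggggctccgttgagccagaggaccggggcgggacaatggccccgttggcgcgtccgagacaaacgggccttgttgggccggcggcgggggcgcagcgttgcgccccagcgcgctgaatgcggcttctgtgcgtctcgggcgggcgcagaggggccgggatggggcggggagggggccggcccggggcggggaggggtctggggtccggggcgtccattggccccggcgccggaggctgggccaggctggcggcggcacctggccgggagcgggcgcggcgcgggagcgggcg
GALC: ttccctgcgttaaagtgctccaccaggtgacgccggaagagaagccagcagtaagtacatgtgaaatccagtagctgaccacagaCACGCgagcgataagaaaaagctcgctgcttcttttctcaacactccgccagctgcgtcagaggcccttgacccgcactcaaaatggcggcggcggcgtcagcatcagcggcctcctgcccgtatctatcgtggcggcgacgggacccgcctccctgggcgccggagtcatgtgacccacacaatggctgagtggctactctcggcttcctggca

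UGT8, ceramide galactosyltransferase, makes galactosylceramide. It was at 8.25, 6.58 and 5.95 CPM in A549-OE, from 192, 144 and 138 counts, and had 0 reads in all A549-WT libraries. The groups did not overlap. Set against 3 counts over the A549-WT group, which corresponds to 0.0501 CPM and covers counting error only, UGT8 was at least 138-fold higher in A549-OE (adjusted p = 4.6e-07). The UGT8 window holds 3 matches to ACGTG, of which a single palindromic CACGTG gives a match on each strand, and 2 matches to GCGTG.

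GAL3ST1, galactosylceramide sulfotransferase, turns galactosylceramide into sulfatide. It was at 27.0, 28.3 and 33.0 CPM in A549-OE and at 0.364, 0.102 and 0 CPM in A549-WT, where the libraries held 6, 2 and 0 counts. All A549-OE libraries lay far above all A549-WT libraries, a 189-fold difference (log2 fold change 7.72, SE 0.35, adjusted p = 1.1e-08). Its size rests on few A549-WT reads: the log2 fold change was 9.14 without A549-WT replicate 1 and 6.99 without A549-WT replicate 3. Differences of this size or larger were found for 3.50% of the transcriptome tested. The GC-rich GAL3ST1 window, at 80% G and C, holds neither core.

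GALC, galactosylceramidase, removes galactose from galactosylceramide in the lysosome and is the enzyme deficient in Krabbe disease. It was at 32.8, 43.8 and 36.3 CPM in A549-OE and at 651, 880 and 642 CPM in A549-WT. The highest A549-OE library was far below the lowest A549-WT library, and the gene fell by 4.27 on the log2 scale (SE 0.15, adjusted p = 1.5e-09), and 10.2% of the genes tested showed a difference of that size or larger. Its window holds 1 match to GCGTG, on the opposite strand. ARSA, arylsulfatase A, which removes the sulfate of sulfatide, did not pass, at 17.7, 19.2 and 15.8 CPM in A549-OE and 19.7, 18.7 and 17.7 CPM in A549-WT (log2 fold change -0.08, SE 0.11). The direction for ARSA turned with library totals as the only scaling (log2 fold change 0.028). For galactosylceramide and sulfatide the transcripts of both synthetic enzymes and of the hydrolase GALC therefore differed, and that of the sulfatase was within the spread of the libraries.

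**Figure D2:**
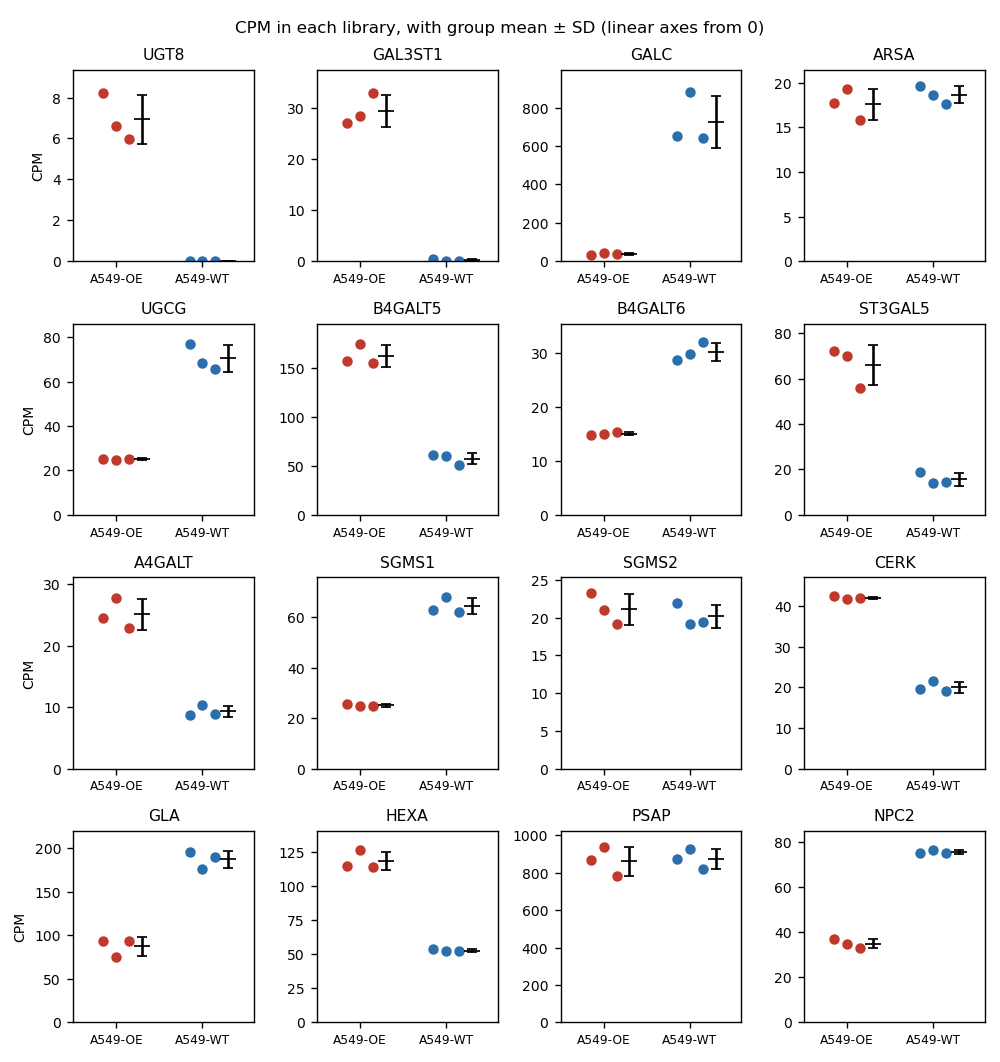
CPM of 16 genes in each library (points) with the group mean ± SD (black), A549-OE in red and A549-WT in blue; each panel has its own linear axis from 0. UGT8 and GAL3ST1 sit at or near 0 in A549-WT, GALC at 642 to 880 CPM there, and the points of ARSA, SGMS2 and PSAP overlap between the groups.

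In the glucosylceramide series UGCG, the first enzyme, and B4GALT6 were lower in A549-OE, and the later enzymes B4GALT5, ST3GAL5 and A4GALT were higher. Calls were made for 3 higher and 2 lower genes of the 7 tested, and 2 did not pass. That is 71.4% called, beside 74.0% of all tested genes. UGCG (chromosome 9, 111896766 to 111935369, plus strand, GRCh38), the glucosylceramide synthase that opens the series, was at 25.4, 24.6 and 25.2 CPM in A549-OE and at 77.2, 68.7 and 65.8 CPM in A549-WT. Its groups did not overlap, and it fell by 1.49 on the log2 scale (SE 0.083, adjusted p = 5.0e-08).

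The next step, lactosylceramide synthesis, is carried out by B4GALT5 and B4GALT6, which went opposite ways. B4GALT5 (chromosome 20, 49632945 to 49713878, minus strand) was at 157, 175 and 155 CPM in A549-OE and at 61.3, 60.4 and 50.7 CPM in A549-WT, 2.82-fold higher. B4GALT6 was at 14.8, 15.04 and 15.3 CPM in A549-OE and at 28.7, 29.8 and 31.96 CPM in A549-WT, 2.01-fold lower. Both pairs of groups were apart (adjusted p = 8.2e-08 for B4GALT5 and 2.0e-06 for B4GALT6). Scaled by transcript length, B4GALT6 made up 10.3, 9.47 and 10.7% of the summed level of the pair in A549-OE and 36.2, 37.5 and 43.3% in A549-WT. The mean share was 10.1 ± 0.621% in A549-OE and 39.0 ± 3.79% in A549-WT (two-sided exact permutation test over libraries, p = 0.1, the smallest that 3 against 3 libraries allow).

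From lactosylceramide the routes to gangliosides and to globosides part, and the first enzyme of each was higher in A549-OE. ST3GAL5, which makes ganglioside GM3, was at 72.2, 69.9 and 55.7 CPM in A549-OE and at 18.9, 13.8 and 14.4 CPM in A549-WT, 4.19-fold higher (log2 fold change 2.08, SE 0.14, adjusted p = 2.0e-07). It lies on chromosome 2, 85837120 to 85905199, minus strand. A4GALT, which makes globotriaosylceramide (Gb3), was at 24.5, 27.8 and 22.95 CPM in A549-OE and at 8.74, 10.3 and 8.88 CPM in A549-WT, 2.69-fold higher (adjusted p = 1.2e-06). The lowest A549-OE library was above the highest A549-WT library for both genes. Later ganglioside steps showed no call. B4GALNT1, which makes GM2 and GD2, averaged 107 ± 4.58 CPM in A549-OE and 118 ± 1.96 CPM in A549-WT (adjusted p = 0.062); its libraries did not overlap, and without A549-OE replicate 3 it passed (adjusted p = 0.045). B3GALT4, which makes GM1, was low, at 1.02 ± 0.171 CPM in A549-OE and 1.20 ± 0.439 CPM in A549-WT. Together with ST8SIA1 at 0 reads, this leaves the GD3 synthase step without detectable transcript at this depth and the GM1 step near 1 CPM in both groups.

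**Figure D3:**
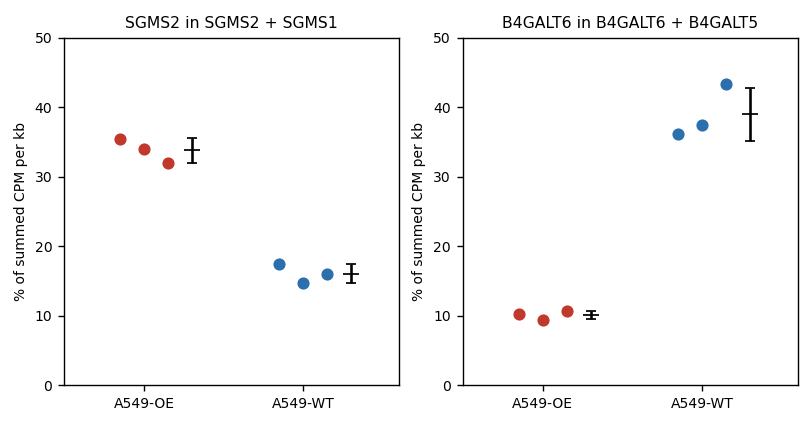
Share of each enzyme in the summed length-scaled level of a pair of paralogs, in percent, for each library (points) with the group mean ± SD (black). SGMS2 took 32.0 to 35.5% in A549-OE and 14.7 to 17.5% in A549-WT, and B4GALT6 took 9.47 to 10.7% in A549-OE and 36.2 to 43.3% in A549-WT.

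Of the sphingomyelin synthases, SGMS1 was lower and SGMS2 was not called. SGMS1 (chromosome 10, 50305586 to 50625163, minus strand), the Golgi enzyme, was at 25.7, 24.7 and 24.8 CPM in A549-OE and at 62.9, 67.9 and 61.9 CPM in A549-WT, 2.56-fold lower (log2 fold change -1.36, SE 0.075, adjusted p = 5.1e-08). SGMS2, the enzyme found mainly at the plasma membrane, was at 23.2, 20.99 and 19.1 CPM in A549-OE and 21.9, 19.2 and 19.4 CPM in A549-WT, and the groups overlapped (adjusted p = 0.58). Its log2 fold change of 0.067 had an SE of 0.11. The length-scaled share of SGMS2 in the pair was 35.5, 34.1 and 32.0% in A549-OE and 17.5, 14.7 and 16.0% in A549-WT, with a mean of 33.9 ± 1.78% in A549-OE and 16.1 ± 1.41% in A549-WT (two-sided exact permutation test over libraries, p = 0.1). SAMD8, a related enzyme that makes ceramide phosphoethanolamine, averaged 63.3 ± 6.46 CPM in A549-OE and 74.9 ± 1.05 CPM in A549-WT, 1.18-fold lower (adjusted p = 0.019). That call was lost with library totals as the only scaling (adjusted p = 0.16), without A549-OE replicate 1 (adjusted p = 0.083) and without A549-OE replicate 3 (adjusted p = 0.071). CERK, ceramide kinase, draws on the same ceramide; it was at 42.4, 41.8 and 41.9 CPM in A549-OE and at 19.6, 21.5 and 19.02 CPM in A549-WT, 2.10-fold higher (adjusted p = 7.1e-07).

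All 3 lipid transfer proteins were called, beside 74.0% of all tested genes. CERT1, which carries ceramide to the Golgi for sphingomyelin synthesis, was higher, whereas both carriers of glucosylceramide were lower. CERT1 averaged 39.8 ± 2.12 CPM in A549-OE and 28.0 ± 2.08 CPM in A549-WT, 1.42-fold higher. GLTP, a glycolipid transfer protein of the cytosol, was at 27.7, 27.6 and 27.6 CPM in A549-OE and at 55.6, 60.7 and 54.6 CPM in A549-WT, 2.06-fold lower (adjusted p = 4.4e-07). PLEKHA8, also called FAPP2, moves glucosylceramide within the Golgi and averaged 20.8 ± 1.76 CPM in A549-OE and 36.5 ± 2.91 CPM in A549-WT, 1.76-fold lower. Counts of PLEKHA8 and SMPD4 lay at least 0.054 and 0.063 from a whole number in every library, against at most 0.040 in any library for the other members, so reads may be shared with similar copies and their values are uncertain. The gene bodies of 13 of the 35, among them SGMS1, CERT1, B4GALT6, GLA, GM2A, NPC1 and NPC2, overlap a tested gene on the opposite strand. The counting may or may not have used strand, and overlap of exons was not examined. Whether reads of such partners were shared is therefore not known.

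Of the 6 genes listed under sphingomyelin breakdown, 2 were higher, 2 lower and 2 did not pass, and the largest changes were in genes of low level. The 2 higher genes, SMPDL3A and SMPDL3B, are relatives of SMPD1. None of SMPD1, SMPD2, SMPD3 and SMPD4 was called higher. The called share was 66.7%, beside 74.0% of all tested genes. SMPD1, the acid sphingomyelinase of the lysosome, averaged 14.8 ± 2.31 CPM in A549-OE and 21.9 ± 1.45 CPM in A549-WT, 1.48-fold lower (adjusted p = 0.0020). SMPD3, a neutral sphingomyelinase of the Golgi and plasma membrane, was at 0.472, 0.183 and 0.0431 CPM in A549-OE, from 11, 4 and 1 counts, and at 2.18, 1.79 and 2.43 CPM in A549-WT. The groups were apart, and SMPD3 fell by 3.16 on the log2 scale (SE 0.55, adjusted p = 0.00034), or by 4.19 without A549-OE replicate 1. SMPDL3B, a membrane-anchored phosphodiesterase related to SMPD1, was at 2.49, 2.47 and 3.71 CPM in A549-OE and at 0.182, 0.563 and 0.209 CPM in A549-WT. That is 9.08-fold higher (log2 fold change 3.16, SE 0.43, adjusted p = 5.7e-05), and the log2 fold change was 3.82 without A549-WT replicate 2. SMPDL3A, a secreted relative, was at 1.93, 1.87 and 2.33 CPM in A549-OE and at 0.425, 0.563 and 0.880 CPM in A549-WT, 3.29-fold higher (adjusted p = 0.0012). The higher-level neutral enzyme gene SMPD4 averaged 118 ± 11.5 CPM in A549-OE and 121 ± 5.73 CPM in A549-WT, and SMPD2 averaged 8.37 ± 1.49 CPM in A549-OE and 8.49 ± 1.98 CPM in A549-WT. Neither of these passed (adjusted p = 0.69 for SMPD4 and 0.96 for SMPD2).

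Of 10 glycosphingolipid breakdown genes, calls were made for 3 higher and 3 lower ones, and 4 did not pass. That is 60% called, beside 74.0% of all tested genes. GALC, described above, was the extreme. GLA, α-galactosidase A, which removes the last galactose of Gb3 and is deficient in Fabry disease, was at 93.6, 74.6 and 93.3 CPM in A549-OE and at 196, 176 and 189 CPM in A549-WT, 2.15-fold lower (log2 fold change -1.10, SE 0.093, adjusted p = 1.5e-06). For Gb3, the transcript of the synthase A4GALT was thus higher and that of the hydrolase GLA lower in A549-OE. HEXA, the α subunit of the β-hexosaminidase that degrades GM2 and is deficient in Tay-Sachs disease, was at 115, 126 and 114 CPM in A549-OE and at 53.6, 51.9 and 51.9 CPM in A549-WT, 2.25-fold higher (adjusted p = 7.9e-08). GM2A, the GM2 activator that presents the lipid to this enzyme, was also higher, at 49.9 ± 5.21 CPM in A549-OE and 29.7 ± 2.84 CPM in A549-WT (1.68-fold, adjusted p = 5.8e-05).

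GBA2, the glucosylceramidase that acts outside the lysosome, averaged 60.0 ± 3.11 CPM in A549-OE and 41.2 ± 4.67 CPM in A549-WT, 1.46-fold higher (adjusted p = 0.00031). NEU3, the plasma membrane sialidase that trims gangliosides, averaged 16.3 ± 2.17 CPM in A549-OE and 24.2 ± 2.59 CPM in A549-WT, 1.49-fold lower (adjusted p = 0.0016). The lysosomal sialidase NEU1 averaged 18.5 ± 1.42 CPM in A549-OE and 16.2 ± 1.42 CPM in A549-WT and was not called (adjusted p = 0.13), but it passed with library totals as the only scaling (adjusted p = 0.024). GLB1, the β-galactosidase of GM1, averaged 71.9 ± 9.48 CPM in A549-OE and 69.1 ± 7.97 CPM in A549-WT, without a call. PSAP, the precursor of the saposins that assist GALC, ARSA, GLA and others, was at 865, 937 and 783 CPM in A549-OE and 873, 928 and 821 CPM in A549-WT. These overlapped fully, and the log2 fold change was -0.020 (SE 0.080, adjusted p = 0.83).

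The proteins that hand cholesterol out of the lysosome, where it accumulates together with sphingolipids in Niemann-Pick disease type C, went opposite ways. NPC1, the membrane protein, was at 94.3, 89.3 and 84.9 CPM in A549-OE and at 60.9, 61.6 and 54.2 CPM in A549-WT, 1.52-fold higher (adjusted p = 3.3e-05). NPC2, its soluble partner, was at 36.9, 34.9 and 32.9 CPM in A549-OE and at 75.2, 76.3 and 75.02 CPM in A549-WT, 2.16-fold lower (adjusted p = 1.8e-07). For each gene the libraries of the groups were apart.

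Levels of different genes were compared as mean CPM per kb of the longest protein-coding transcript. PSAP ranked highest of the 35 in both groups, at 300.1 CPM per kb in A549-OE and 304.3 CPM per kb in A549-WT. GALC ranked 16 in A549-OE, at 9.68 CPM per kb, but 2 in A549-WT, at 186.5 CPM per kb. GLA ranked 2 in A549-OE at 61.2 CPM per kb and 3 in A549-WT at 131 CPM per kb. B4GALT5 ranked 4 in A549-OE at 34.3 CPM per kb and 11 in A549-WT at 12.2 CPM per kb, whereas UGCG ranked 22 in A549-OE at 6.25 CPM per kb and 9 in A549-WT at 17.6 CPM per kb. In length-scaled level, B4GALT5 therefore lay above UGCG in A549-OE and below it in A549-WT.

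**Figure D4:**
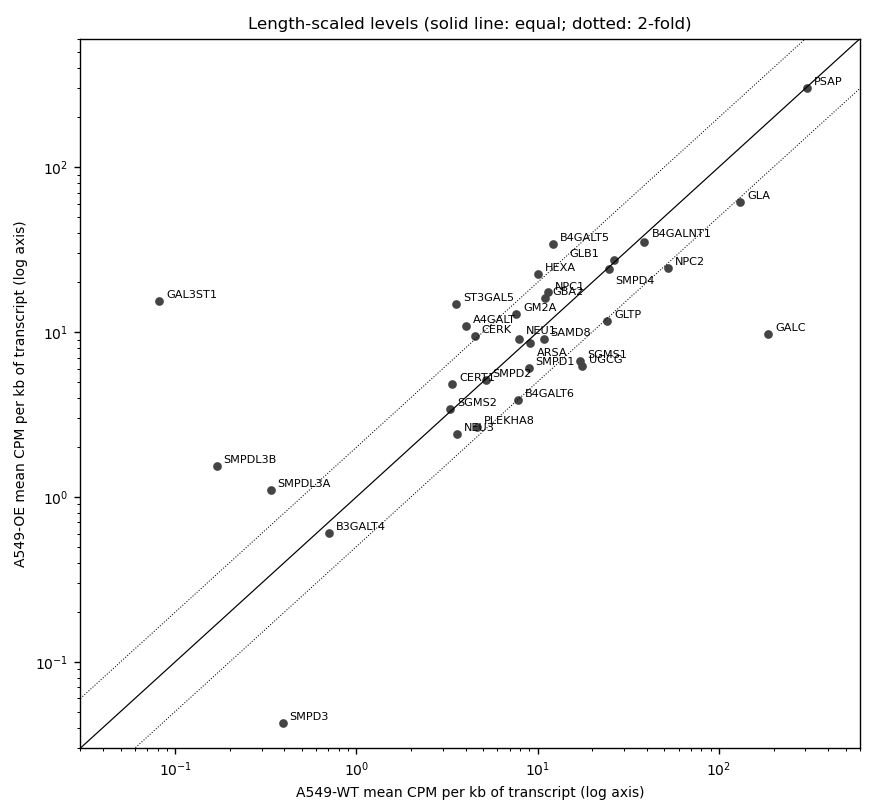
Mean level of each gene in CPM per kb of transcript, A549-WT on the horizontal and A549-OE on the vertical log axis; the solid line marks equal levels and the dotted lines a 2-fold difference. UGT8 and ST8SIA1, at 0 in A549-WT, cannot be drawn; GAL3ST1 lies far above the line, GALC far below it and PSAP on it.

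The position of the genes was also examined. For each gene the log2 fold changes of the 10 nearest tested genes, 5 on each side, were read from the same test. GBA2 was higher among neighbours of which all 10 were higher (median log2 fold change 1.05). SMPD1 was lower, although 8 of its 10 neighbours were higher and 0 lower (median 0.81), and NPC2 was lower with 6 neighbours higher and 0 lower (median 0.56). Around GALC 1 neighbour was higher and 6 were lower (median -0.42). Around GAL3ST1 4 were higher and 3 lower (median 0.46), and around UGT8 2 were higher and 5 lower (median -0.19). The median of the neighbours thus had the direction of the member for GBA2, GALC and GAL3ST1 and the opposite one for SMPD1, NPC2 and UGT8; these genes were picked after their values were seen.

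Start regions in RefSeq were at hand for 26 of the 35 genes. ACGTG was present on either strand in 5 of these 26 windows (19.2%) and in 21.6% of all 27305 windows of the same length. GCGTG was present in 10 (38.5%) and in 36.3% of all windows. CACGTG, the E-box, which contains ACGTG on both strands, was present in the windows of NEU1 and UGT8, 7.69% of the genes, and in 7.43% of all windows. The core of the CLEAR element of lysosomal genes, an E-box with a T before and an A after it, was present in 0 of the 26 and in 1.04% of all windows. The shares of the genes thus lie near those of all windows, and a match is a description of letters, not a binding site. The windows of the 26 genes had a median of 70.2% G and C, against 58.3% over all windows. The shares therefore compare sequences of unlike composition. These windows follow the start that RefSeq gives, which need not be the one used in these cells.

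Further lists show the surroundings of these steps. Of all tested genes, 74.0% were called, 38.3% higher and 35.7% lower. The called share was 66.7% for the ceramide transport partners and 62.5% for the tested further glycosyltransferases. Of 9 partners of ceramide transport, 1 was higher, 5 lower and 3 did not pass (median log2 fold change -0.25), with 3 rather than 5 lower when library totals were the only scaling. PPM1L, a phosphatase that acts on CERT1, was 10.6-fold higher at 8.30 ± 1.55 CPM in A549-OE and 0.783 ± 0.316 CPM in A549-WT, and VAPB, an anchor of CERT1 at the endoplasmic reticulum, was 1.62-fold lower. PI4KB, a Golgi phosphatidylinositol kinase, was 1.46-fold lower and the small GTPase gene ARF1 1.36-fold lower. Of 15 further glycosyltransferases that can act on glycosphingolipids, 8 were tested, of which 1 was higher, 4 lower and 3 did not pass (median -1.24). In this list 2 were higher with either other scaling, the filter at 1 CPM, the replicate block or DESeq2, and without A549-OE replicate 3 or A549-WT replicate 2. B3GALT5 averaged 7.35 ± 0.554 CPM in A549-OE and had 0 reads in A549-WT, at least 147-fold higher. FUT1 was 21.6-fold lower at 0.294 ± 0.183 CPM in A549-OE and 6.34 ± 2.36 CPM in A549-WT, the sialyltransferase gene ST3GAL1 was 5.08-fold lower at 37.5 ± 4.14 CPM in A549-OE and 190.3 ± 32.4 CPM in A549-WT, and B3GNT5, which starts the lacto series from lactosylceramide, was 3.74-fold lower at 8.69 ± 2.48 CPM in A549-OE and 32.5 ± 1.54 CPM in A549-WT. From lactosylceramide, then, the transcripts of the GM3 and Gb3 synthases were higher and that of the lacto-series enzyme was lower.

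Among 14 genes of nucleotide sugars and sulfate donors, 7 were higher, 4 lower and 3 did not pass (median 0.11). The called share was 78.6%, beside 74.0% of all tested genes. The Leloir pathway genes GALK1 and GALT were 2.56-fold and 1.94-fold higher, and GNE, which starts sialic acid synthesis, was 2.14-fold higher. PAPSS1 and PAPSS2 make the sulfate donor used by GAL3ST1 and other sulfotransferases. PAPSS2 was 5.25-fold lower at 69.4 ± 18.3 CPM in A549-OE and 364 ± 3.15 CPM in A549-WT. PAPSS1 was not called, at 41.6 ± 1.88 CPM in A549-OE and 40.0 ± 1.93 CPM in A549-WT (adjusted p = 0.53). Of 9 genes that sort or activate lysosomal enzymes, 6 were higher, 2 lower and 1 did not pass (median 0.44). In this list 88.9% were called, beside 74.0% of all tested genes. SUMF1, which activates sulfatases such as ARSA, was 1.88-fold higher, SUMF2 1.65-fold higher and the sorting receptor gene SORT1 1.55-fold higher, whereas IGF2R, the large mannose 6-phosphate receptor, was 2.94-fold lower at 114 ± 5.83 CPM in A549-OE and 335 ± 7.62 CPM in A549-WT. Of 25 other lysosomal genes 80% were called, beside 74.0% of all tested genes, with 15 lower, 5 higher and 5 without a call (median -0.44, beside 0.034 over all tested genes); with library totals as the only scaling 8 were higher. The protease gene TPP1 was 11.1-fold higher and NAGLU, which acts on heparan sulfate, 2.62-fold higher, while the cathepsin gene CTSL was 2.74-fold lower and the thioesterase gene PPT1 2.64-fold lower. Of 4 transcriptional regulators of lysosomal genes 3 were tested, and 66.7% of these were called. TFE3 was 2.27-fold lower, MITF 1.62-fold lower and TFEB, at 7.82 ± 1.94 CPM in A549-OE and 7.27 ± 1.54 CPM in A549-WT, was not called.

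**Figure D5:**
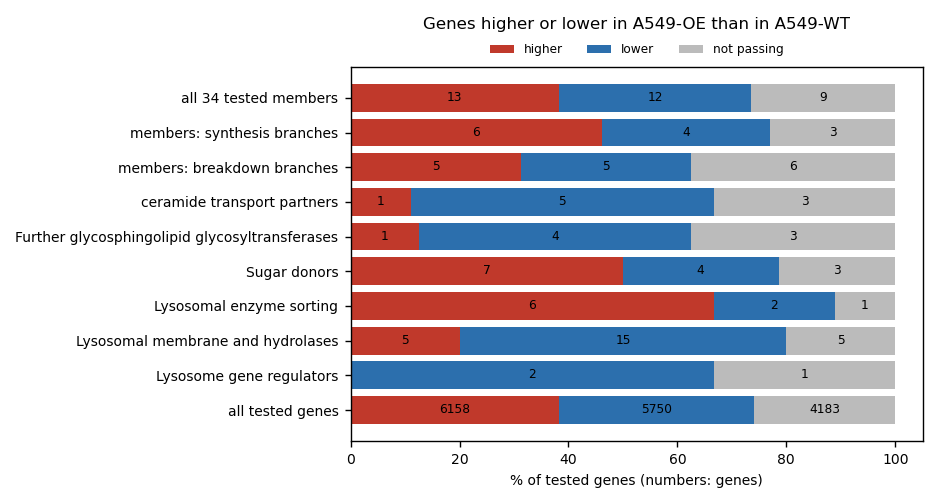
Share of tested genes (horizontal axis, percent) that were higher in A549-OE (red), lower (blue) or did not pass (grey), for the described genes, the further lists and all tested genes, with the number of genes printed in each bar. The described genes were 13 higher, 12 lower and 9 not passing, and the other lysosomal genes 5 higher, 15 lower and 5 not passing.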

How the data were processed

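The series holds 6 RNA-seq libraries, 3 per group. The authors deposited expected counts per gene, which the table's name credits to salmon; the submitters' processing notes name bcl2fastq 2.20 and GRCh38, whereas salmon's version, the annotation and the strand setting were not given in the sources used here. Labels conflict on the RNA, naming polyA RNA in one field and a ribosomal RNA depletion kit in another. In a library up to 9.51% of the deposited counts were not whole (tolerance 1e-06), and counts were rounded. Another 6 columns, named for another cell line, match no sample and were not used.

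Symbols matched 61481 of 78932 IDs (77.9%). Genes passing filterByExpr (smallest count 10) were tested with edgeR 4.0.16 (R 4.3.3) by its quasi-likelihood F test, TMM scaling and Benjamini-Hochberg adjustment over 16091 genes, threshold 0.05. SE is the log2 fold change divided by the square root of F. Folds are ratios of mean CPM; against 0 reads they are bounds set by 3 counts over the group. Positions and transcript lengths came from GENCODE release 29 (GRCh38), start regions from RefSeq. The members and lists were chosen with earlier results of these data known. Values per library are given for genes called with a log2 fold change of at least 1 in size, the paralog pairs, PSAP, NPC1 and NPC2; of each further list up to 4 called genes with the largest changes are named, with a mean of at least 1 CPM in a group. ARSA, PAPSS1 and the neighbours named were added after their values were seen.

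Batch labels carry the same replicate numbers in both groups, which pairs the libraries; deviations from group means correlated by 0.0013 to 0.096 within pairs over all tested genes and by 0.088 to 0.21 over those above the median level. No libraries repeated each other (chi-square per degree of freedom 5.66 to 14.6 within groups). The steps were also run on simulated counts in which few genes were changed, at the common dispersion. Here 74.0% of all tested genes were called, so that run does not check scaling or calling in such a setting. Alternatives were 2 other scalings, DESeq2 1.42.0, 2 other filters, a replicate block and leaving out each library.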

Additional observations from a re-analysis of the deposited data

How the results depend on the processing

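The counts of 13 genes higher and 12 lower were found under each of the 12 alternatives, except 14 higher and 11 lower under scaling by library totals alone and 11 lower without A549-OE replicate 1. With the replicate block, which pairs the libraries by batch label, 25 members were called (13 higher, 12 lower), no member's call changed, and 11960 of all tested genes were called. Library totals shifted all genes by 0.11 on the log2 scale; with them SMPD2, SMPD4, ARSA and PSAP, none of them called, had log2 fold changes of 0.10, 0.075, 0.028 and 0.093, above 0. SMPD2 was also above 0 with DESeq2-style size factors (0.0034), with the filter at 1 CPM (0.0035) and with DESeq2 (0.0029), and the cause was not tested. Leaving out single libraries, uncalled genes ranged from -0.0063 to 0.14 (SGMS2), -0.43 to 0.088 (B3GALT4), -0.21 to 0.13 (SMPD2), -0.091 to 0.037 (SMPD4), -0.051 to 0.14 (GLB1) and -0.087 to 0.046 (PSAP). Of 408 member values 386 kept direction and side of the threshold. Without division by transcript length, the SGMS2 share differed by 21.7 rather than 17.8 percentage points. Depth limits SMPD3, SMPDL3A, SMPDL3B, B3GALT4 and the A549-WT level of GAL3ST1.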
